A study of Mus musculus with 1104 samples.

Results

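The collagen genes of the mouse were followed through 13 organs while male mice ate a high-fat diet. They were taken as every row of the count table whose symbol is Col, a number, a and a number, which gave 44 genes of the 20646 in the table. By the trimers they form, 11 of them are fibrillar collagens (types I, II, III, V, XI, XXIV and XXVII), 6 are chains of type IV, the network collagen of basement membranes, and 27 are of other kinds. The 27 are 6 chains of the beaded filament collagen VI, 9 fibril-associated collagens, 2 multiplexins, 3 short chain collagens, 1 anchoring fibril collagen, 4 transmembrane collagens and 2 remaining genes. All mice were wild type C57BL/6 males that received a diet with 60 kcal% fat from 8 weeks of age until dissection. Groups of 6 mice each were taken at 0, 1 and 3 days, at 1 week, 10 days, and 2, 3, 4, 5, 6, 7, 8, 10 and 12 weeks, and for epididymal fat also at 16 and 20 weeks. That makes 184 groups of an organ and a time and 1104 libraries. No mice on a control diet were analysed here, so time on the diet, age and the day of dissection change together and cannot be told apart.

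Collagens are the main structural proteins of the extracellular matrix, built as triple helices of 3 chains that may be the same or different. Fibrillar collagens form the cables of tendon, skin and scar and are made largely by fibroblasts and their relatives, type IV forms a sheet under endothelial and epithelial cells and around each fat and muscle cell, and type VI forms a web that is abundant around fat cells. In obese fat and in the diet-injured liver, deposition of collagen is a known part of fibrosis. In these bulk samples fewer cells of a type and less RNA per cell cannot be told apart, and p-values measure the spread between libraries, since the labels name no separate litters or cages.

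Depth ran from 7670532 to 27036098 counts per library, with a median of 13464321. Levels are counts scaled to library size (CPM) with TMM-scaled library sizes, where TMM is a trimmed mean that evens out libraries of different composition. Changes are log2 fold changes with their standard error (SE) from edgeR's quasi-likelihood test, with p-values adjusted by Benjamini and Hochberg over all genes tested in the organ, and a gene is called when the adjusted p is under 0.05. Some libraries carried RNA of a neighbouring tissue, such as epididymis in epididymal fat, lymph node and muscle in inguinal fat, pancreatic acinar cells in small intestine, brown fat in 1 soleus library and choroid plexus in hippocampus.

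At 0 days the collagens took very different shares of an organ's counts. A share is the summed CPM of the 44 genes as a percent of the TMM-scaled library size. In epididymal fat the lowest, median and highest share over 6 libraries was 0.478, 0.949 and 1.28%. Inguinal fat had a median of 0.923% (0.474 to 1.69%), brown fat 0.346%, gastrocnemius 0.298%, soleus 0.202%, pituitary 0.155% and liver 0.135%. Olfactory bulb, hypothalamus, hippocampus, neocortex, small intestine and pancreas lay between 0.0636 and 0.114%. The white fats thus stood above all other organs in their medians, although the lowest libraries of the white fats overlapped the highest of brown fat and soleus (0.576%).

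The gene that led each organ at 0 days differed too. Per kilobase of transcript, Col3a1, the chain of type III fibrils in soft tissue, had the highest mean level in inguinal fat (592 CPM per kb, SD 276, n = 6), epididymal fat (349, SD 95.2), brown fat (142, SD 68.6), small intestine (21.1, SD 3.97) and pancreas (19.9, SD 4.97). Col1a2, the second chain of type I fibrils, led in soleus (134 CPM per kb, SD 96.1), gastrocnemius (128, SD 37.8) and pituitary (54.8, SD 5.51). Liver was led by Col18a1, the multiplexin whose C-terminal fragment is endostatin, at 186 CPM per kb (SD 10.6), with the next gene, Col14a1, at 9.12 CPM per kb (SD 1.18). In the brain Col6a1 led in olfactory bulb (52.0 CPM per kb, SD 1.78) and neocortex (20.4, SD 0.809), Col4a2 in hippocampus (21.5, SD 0.792) and the transmembrane collagen Col25a1 in hypothalamus (26.5, SD 1.32). In soleus, brown fat and hippocampus the leading gene and the next (Col1a1, Col4a1 and Col9a3) lay within 1 SD of each other, so their order is not settled.

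After 12 weeks the organs had moved in different directions. Most called collagens were higher in epididymal fat, inguinal fat, liver and small intestine, and most were lower in gastrocnemius, soleus, pituitary and neocortex. Lower calls also outnumbered higher ones in brown fat (8 and 4), olfactory bulb (5 and 1), hippocampus (3 and 2) and hypothalamus (2 and 1). Over all organs 491 pairs of a collagen and an organ had enough counts to be tested, and 82 of them rose and 82 fell (16.7% each, where 14% of the pairs of all genes were higher and 13.7% lower). Of the 44 genes, 25 were tested in all 13 organs. There were 23 genes (52.3%) that rose in some organ and fell in another, where 49.1% of all genes did, 5 (11.4%, against 17.8%) that were called only upwards and 15 (34.1%, against 23.1%) only downwards. The remaining gene, Col10a1 of growth plate cartilage, was called in none of the 3 organs in which it was tested, although it was called in both white fats and liver with no filter on low counts and in both white fats with a replicate block.

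**Figure D1:**
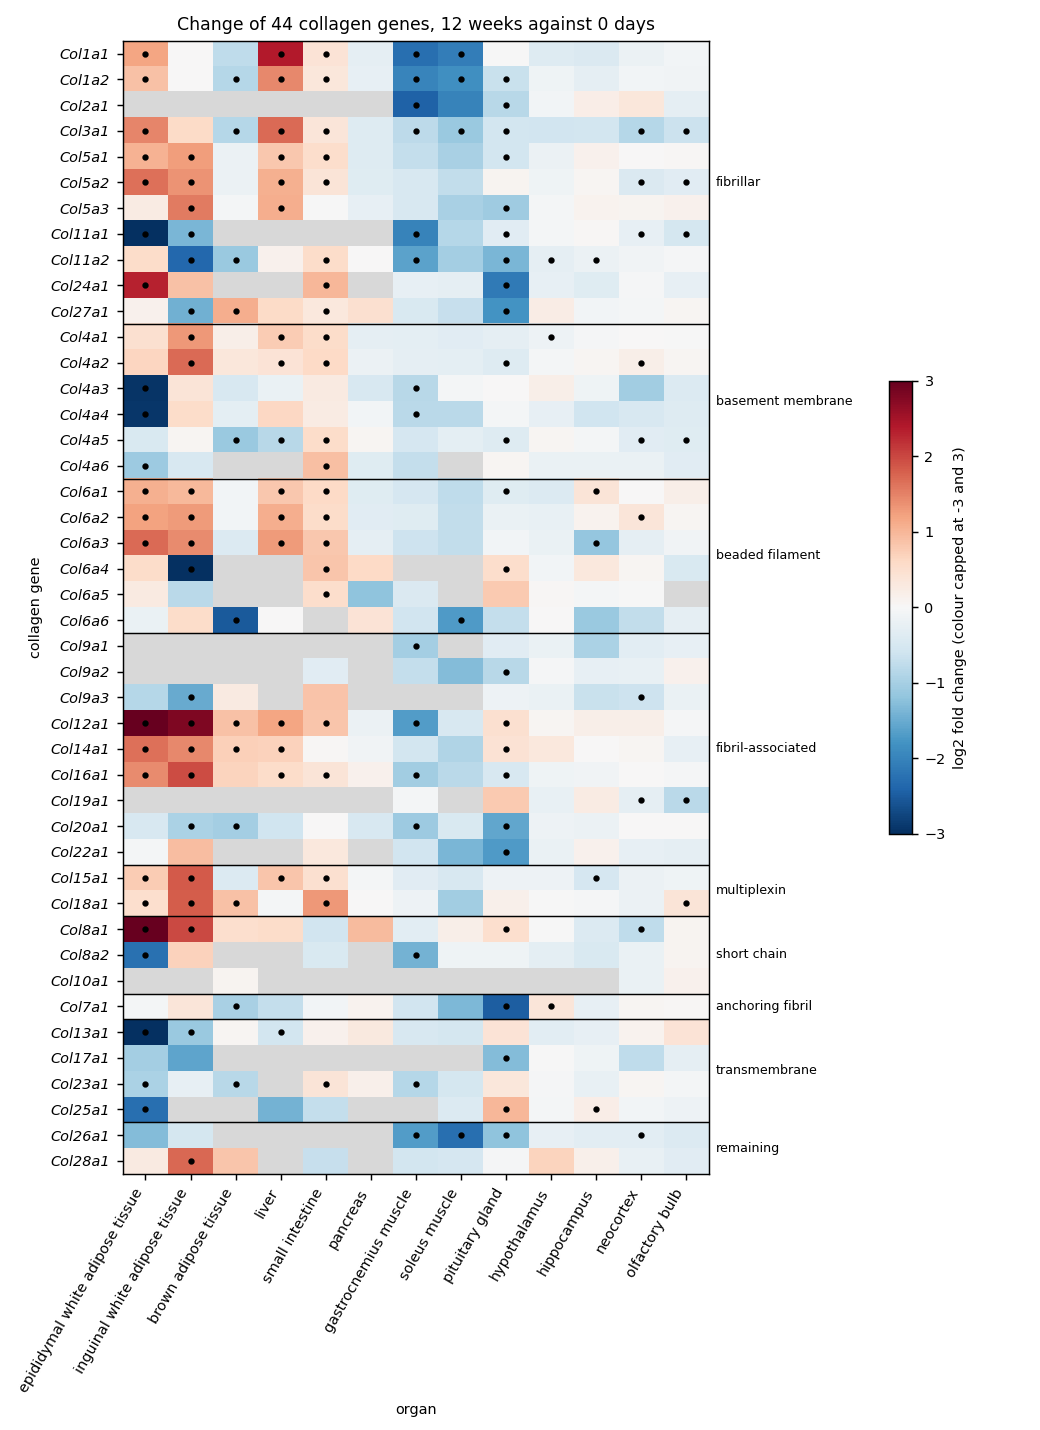
Log2 fold change of the 44 collagen genes (rows, grouped by kind) at 12 weeks against 0 days in 13 organs (columns), from 6 libraries per group. Red is higher and blue lower at 12 weeks, grey was not tested, and black dots mark the 82 higher and 82 lower calls at an adjusted p under 0.05; the dots are mostly red in the 4 columns of white fat, liver and small intestine and mostly blue in muscle and pituitary.

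Set against all genes, the counts were as follows. In epididymal fat 15 of 39 tested collagens rose and 8 fell, where 31% of all genes rose and 29.3% fell. In inguinal fat 15 of 38 rose and 7 fell, where 21.5% of all genes rose and 23.1% fell. In liver 15 of 27 rose and 2 fell, with 20.6% of all genes higher and 21.4% lower, and in small intestine 22 of 36 rose and 0 fell, with 19.8% higher and 19.1% lower. The collagens of inguinal fat, liver and small intestine therefore rose at a larger share than all genes, while in epididymal fat the share that rose was nearer to the background. The median log2 change over all genes was within 0.03 of 0 in each of these organs and in gastrocnemius.

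Downward calls led in muscle and pituitary. In gastrocnemius 15 of 39 collagens fell and 0 rose, where 3.54% of all genes fell and 2.4% rose. In soleus 5 of 36 fell and 0 rose, against 1.69% of all genes lower and 2.19% higher. In pituitary 19 of 43 fell and 5 rose, where 22.4% of all genes fell and 23.2% rose. No collagen was higher in either muscle, or lower in small intestine, by edgeR, by DESeq2 or by voom with quality weights, nor at an unadjusted p under 0.05 by edgeR (0 genes in each). Soleus had 17 collagens lower at an unadjusted p under 0.05, so the number called there depends on the adjustment.

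Brown fat was mixed, with 4 of 30 collagens higher and 8 lower (all genes: 14.4% higher, 13.2% lower). In the brain the counts stayed small: 2 higher and 8 lower of 44 in neocortex (13.3% and 11.8% of all genes), 2 and 3 of 43 in hippocampus (13.2% and 12.4%), 1 and 5 of 43 in olfactory bulb (10.8% and 9.99%) and 1 and 2 of 43 in hypothalamus (3.09% and 3.71%). Except for the lower calls in neocortex, these shares are near or under the background. In pancreas edgeR called 0 of 30, where 2.85% of all genes rose and 3.05% fell; 1 collagen was lower at an unadjusted p under 0.05, DESeq2 called 0 and voom with quality weights 1 lower. Among the called collagens, the 6 libraries of 0 days and the 6 of 12 weeks did not overlap for 18 of 23 in epididymal fat, where the same held for 66.2% of all called genes, 18 of 22 in inguinal fat (75.8%), 15 of 24 in pituitary (62.3%), 13 of 22 in small intestine (41.9%), 8 of 15 in gastrocnemius (62.6%) and 6 of 12 in brown fat (62.1%). Fewer were separate in neocortex (4 of 10, against 44.3%), liver (3 of 17, 47.6%), olfactory bulb (2 of 6, 40%), soleus (1 of 5, 56.9%), hippocampus (0 of 5, 41.3%) and hypothalamus (0 of 3, 38.6%).

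The main fibrillar chains rose in epididymal fat. Col3a1 was at 989, 2008 and 2541 CPM (lowest, median and highest of 6 libraries) at 0 days and at 4521, 5477 and 6083 CPM at 12 weeks, and no 12-week library reached down to the 0-day range. Its log2 fold change was 1.47 (SE 0.26, adjusted p = 7.45e-07). Col1a1, the main chain of type I fibrils, went from 266, 542 and 792 CPM to 963, 1314 and 1518 CPM, again with no overlap, a log2 fold change of 1.19 (SE 0.39, adjusted p = 0.0061). Its partner Col1a2 rose by 0.88 (SE 0.27, adjusted p = 0.00351) and Col5a2, a chain of the type V collagen that lies within type I fibrils, by 1.65 (SE 0.25, adjusted p = 1.63e-08), from a median of 189 to 604 CPM. In all, 6 of 10 fibrillar genes tested in this organ rose and 1 fell, with a median log2 change of 0.96 against 0 over all genes. The gene that fell was Col11a1, a cartilage-type chain, from 0.248, 1.21 and 2.18 CPM to 0, 0 and 0.0873 CPM, a level of few counts. The macrophage markers, 6 of 6 higher, summed to 446 to 661 CPM at 0 days and 1940 to 3649 CPM at 12 weeks, while 3 of 8 fibroblast markers were higher, 1 was lower and their sum was 13230 to 18216 CPM at 0 days and 7400 to 7989 CPM at 12 weeks; their part in the collagen changes was not tested.

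Inguinal fat, the subcutaneous depot, had another set of fibrillar changes. Col1a1 was at 388, 958 and 2363 CPM at 0 days and 1051, 1264 and 1333 CPM at 12 weeks, and the later group lay inside the spread of the earlier one (log2 fold change 0.0, SE 0.44, adjusted p = 1.0). Col1a2 had a log2 fold change of 0.02 (SE 0.31, adjusted p = 0.968) and Col3a1 of 0.58 (SE 0.3, adjusted p = 0.104), the last called with voom and quality weights (0.53) and with GC content and length offsets (0.53). Col11a2, a minor fibril chain, fell from a median of 8.79 to 1.68 CPM without overlap, a log2 change of -2.35 (SE 0.53, adjusted p = 0.000225), and Col27a1, known from cartilage, fell from 24.5 to 8.0 CPM (-1.43, SE 0.41). Of the 10 fibrillar genes tested 3 rose and 3 fell. The lymph node inside this depot was unevenly represented: all 6 of its markers were lower at 12 weeks, with sums of 638 to 1795 CPM at 0 days and 5.15 to 21.2 CPM at 12 weeks, and skeletal muscle markers summed to 4.73 to 22489 CPM at 0 days, with 5 of the 6 libraries at 1599 CPM or less, and 5027 to 23068 CPM at 12 weeks. Their part in these changes was not tested.

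In liver the fibrillar chains started low and were higher at 12 weeks. Col1a1 went from 4.61, 5.87 and 13.7 CPM to 12.1, 38.2 and 62.6 CPM, the largest log2 fold change among collagens named in this organ at 2.38 (SE 0.3, adjusted p = 3.83e-10). The groups overlapped through 1 library, replicate 6 of 12 weeks at 12.1 CPM, and the other 5 libraries of 12 weeks were at 30.8 CPM or more. Col3a1 rose from a median of 33.4 to 125 CPM (1.69, SE 0.25, adjusted p = 3.94e-08) and Col1a2 from 14.3 to 44.6 CPM (1.43, SE 0.2, adjusted p = 7e-09), with the same replicate lowest for Col3a1 at 43.1 CPM. Of 8 fibrillar genes 6 rose and 0 fell, with a median log2 change of 1.07. Macrophage markers in liver were 1 higher and 1 lower of 6, and mesothelial markers, which would mark liver capsule, summed to at most 5.53 CPM.

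In small intestine 8 of 9 fibrillar genes rose, and 5 of 9 with GC content and length offsets, where Col11a2, Col1a1 and Col27a1 were not called. Col3a1 ran from 92.7 to 156 CPM at 0 days and from 134 to 170 CPM at 12 weeks, with overlap, a log2 change of 0.37 (SE 0.083, adjusted p = 0.00019). Col1a1 rose by 0.4 (SE 0.13, adjusted p = 0.00991; 0.22 and not called with GC content and length offsets), Col1a2 by 0.35 (SE 0.084) and Col24a1, a minor fibrillar collagen, by 1.0 (SE 0.24) from a median of 1.37 to 2.88 CPM without overlap. Acinar markers, which would come from attached pancreas, summed to 5257 to 13847 CPM at 0 days and 104 to 2143 CPM at 12 weeks, and 7 of 8 fibroblast markers were lower and 1 higher; their part in the result was not tested.

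In gastrocnemius 6 of 11 fibrillar genes fell and 0 rose, and in soleus 3 of 11 fell and 0 rose. In gastrocnemius Col1a1 was at 315, 478 and 682 CPM at 0 days and 39.2, 102 and 165 CPM at 12 weeks, so that the groups did not overlap, and its log2 change was -2.27 (SE 0.39, adjusted p = 1.91e-05). Col1a2 fell from 459, 685 and 912 CPM to 92.4, 164 and 241 CPM (-1.99, SE 0.27, adjusted p = 1.55e-07), Col11a1 from a median of 17.4 to 4.18 CPM (-2.0, SE 0.3) and Col2a1, the collagen of cartilage, from 1.04 to 0.133 CPM (-2.42, SE 0.5). The Col2a1 call was lost when the 2 groups were fitted alone. Col3a1 fell less, from a median of 362 to 223 CPM with overlap (-0.78, SE 0.25, adjusted p = 0.0448). In soleus Col1a1 went from 186, 345 and 1154 CPM to 49.6, 80.5 and 216 CPM (-2.08, SE 0.56, adjusted p = 0.0157), and 1 library of 0 days, replicate 4, held the 1154. That library also had the highest sum of tendon markers at 0 days. The tendon sums in soleus ran from 361 to 1180 CPM at 0 days and from 405 to 1131 CPM at 12 weeks. In soleus Col1a1, Col1a2 and Col3a1 were no longer called when 2 libraries were left out (-1.94, -1.68 and -0.97). These were replicate 1 of 0 days and replicate 6 of 12 weeks, at each time the one with the most brown fat RNA. The same genes were not called when the 2 groups were fitted alone, so 0 of 11 fibrillar genes were left in either fit. Col26a1 stayed called in both fits, and Col6a6 only in the fit without those libraries. In gastrocnemius Col3a1 was not called when the least correlated library of 0 days and of 12 weeks was left out (-0.42). It was also not called with GC content and length offsets (-0.64) or with no filter on low counts. Without replicate 1 of 0 days and of 12 weeks, at each time the library with the most tendon RNA, Col3a1 was again not called. That last fit kept 13 of the 15 calls in gastrocnemius. The tendon markers in gastrocnemius, 3 of 6 lower and 0 higher, summed to 208 to 541 CPM at 0 days and 177 to 297 CPM at 12 weeks, and no fibroblast marker was called in either muscle. Cartilage and bone markers in gastrocnemius summed to 8.96 to 30.8 CPM at 0 days and 4.39 to 14.1 CPM at 12 weeks. The part of tendon, cartilage and bone in these falls was not tested.

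In pituitary 9 of 11 fibrillar genes fell and 0 rose. Col24a1 went from 47.2, 52.6 and 69.2 CPM to 9.93, 12.8 and 15 CPM (-2.12, SE 0.18, adjusted p = 1.5e-16) and Col27a1 from 114, 142 and 154 CPM to 33.0, 36.3 and 50.7 CPM (-1.79, SE 0.17, adjusted p = 6.08e-15), both without overlap. Col1a2 fell by 0.67 on the log2 scale (SE 0.13) and Col3a1 by 0.55 (SE 0.11), while Col1a1 had a log2 change of -0.01 (SE 0.17). The summed hormone markers of the gland had medians of 206303 CPM at 0 days and 122470 CPM at 12 weeks, and 3 fibroblast and 4 endothelial markers were higher with 0 lower. In neocortex 3 of 11 fibrillar genes fell and 0 rose, with a median log2 change of -0.08. Col3a1 fell there from 6.41, 6.98 and 9.05 CPM to 2.9, 4.11 and 5.05 CPM (-0.85, SE 0.18, adjusted p = 0.000147) and Col5a2 by 0.43 (SE 0.13). Fibroblast markers there summed to 178 to 201 CPM at 0 days and 131 to 164 CPM at 12 weeks, with 2 of 6 tested lower and 0 higher, and 0 of 6 meningeal markers were called; their part in the fall was not tested. In olfactory bulb, also with 3 of 11 lower and 0 higher, Col3a1 fell by 0.65 (SE 0.18) and Col11a1 by 0.53 (SE 0.13). In brown fat 3 of 8 fell and 1 rose. Col3a1 fell there from a median of 747 to 403 CPM with overlap (-0.86, SE 0.27, adjusted p = 0.0119) and Col1a2 by 0.85 (SE 0.25), neither called without replicate 3 of 0 days (-0.66 and -0.65), and Col27a1 rose from a median of 53.4 to 114 CPM without overlap (1.08, SE 0.25). Skeletal muscle markers in brown fat, 0 of 6 called, had medians of 141 CPM at 0 days and 425 CPM at 12 weeks and reached 2383 and 1632 CPM; their part was not tested.

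The chains of type IV come as neighbours on the chromosome that are transcribed away from each other, and the start regions of these pairs are shown here because the changes of both partners are given side by side below. The first sequence is the interval of 22 bases between the starts of Col4a1 and Col4a2 at chr8:11312805-11312826 (plus strand), where both first exons begin, and the next is the 71 bases between the starts of Col4a3 and Col4a4 at chr1:82586850-82586920 (minus strand). The other lines are the 150 bases before the starts of Col3a1 (chr1:45311388-45311537, plus strand) and Col8a1 (chr16:57754738-57754887, minus strand), a fibrillar and a short chain gene that rose without overlap in epididymal fat. All are from RefSeq, build GRCm38.p6, 5′ to 3′, and lie outside annotated exons except the first, which falls in first exons of both genes. Capitals mark, on either strand, the CCAAT box by those letters, the GC box as GGGCGG, and the Goldberg-Hogness box as TATAAA.
Col4a1 and Col4a2 start interval: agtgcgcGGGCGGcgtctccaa
Col4a3 and Col4a4 start interval: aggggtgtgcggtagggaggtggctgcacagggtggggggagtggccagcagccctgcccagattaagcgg
Col3a1 upstream: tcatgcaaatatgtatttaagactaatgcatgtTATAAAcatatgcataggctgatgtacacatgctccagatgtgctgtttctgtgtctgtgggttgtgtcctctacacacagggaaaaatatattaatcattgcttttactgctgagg
Col8a1 upstream: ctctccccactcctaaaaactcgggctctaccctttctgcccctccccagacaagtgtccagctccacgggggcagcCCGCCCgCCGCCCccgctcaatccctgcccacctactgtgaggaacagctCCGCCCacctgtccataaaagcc
The Col4a1 and Col4a2 interval holds 1 GC box, the Col4a3 and Col4a4 interval none of these letters, Col3a1 1 TATAAA and Col8a1 3 GC boxes. Windows of 250 bases before to 50 after the start were given for 35 of the 44 collagens. With 1 window per gene, the first listed, GGGCGG lies in 22 of them (62.9%) against 35.9% of all 27025 windows, CCAAT in 12 (34.3% against 37.9%) and TATAAA in 5 (14.3% against 14.2%). A match is a description of the letters, not a site.

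The 2 common basement membrane chains rose in inguinal fat, liver and small intestine. In inguinal fat Col4a1 went from 389, 1299 and 1514 CPM to 2687, 2836 and 3094 CPM (1.3, SE 0.42, adjusted p = 0.00824) and Col4a2 from 204, 708 and 844 CPM to 1920, 2020 and 2240 CPM (1.69, SE 0.46, adjusted p = 0.00171), both without overlap. In small intestine Col4a1 rose from a median of 60.4 to 86.9 CPM (0.54, SE 0.088) and Col4a2 from 38.6 to 57.8 CPM (0.59, SE 0.097), with no overlap. In liver Col4a1 rose by 0.75 (SE 0.13) and Col4a2 by 0.42 (SE 0.13), each with overlapping groups. In epididymal fat Col4a1 had a log2 change of 0.49 (SE 0.29, adjusted p = 0.149) and Col4a2 of 0.64 (SE 0.31, adjusted p = 0.0721), neither called by edgeR with TMM. Both were called with voom and quality weights (0.6 and 0.77) and with GC content and length offsets (0.57 and 0.81). In gastrocnemius and soleus the pair lay between -0.27 and -0.33 on the log2 scale and was not called. In brain Col4a2 rose by 0.17 (SE 0.047) in neocortex and Col4a1 fell by 0.16 (SE 0.042) in hypothalamus, steps that are small beside those in fat and were not called with GC content and length offsets (0.06 and -0.12).

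The minor chains of type IV went down in epididymal fat. Col4a3 went from 7.08, 20.6 and 25.5 CPM to 0.778, 2.68 and 3.49 CPM (-2.93, SE 0.38, adjusted p = 2.62e-10) and Col4a4 from 14.5, 47.2 and 56.2 CPM to 3.35, 5.49 and 8.12 CPM (-2.92, SE 0.36, adjusted p = 4.13e-11), and in neither did the groups overlap. These chains are known from the basement membrane of the kidney glomerulus, lung and testis. Of the 6 type IV genes in this organ 3 fell and 0 rose, with a median log2 change of -0.78. Epididymis markers summed to 1.59 to 378 CPM at 0 days and 0.202 to 304 CPM at 12 weeks with medians of 7.5 and 0.491 CPM, mesothelial markers were 1 higher and 1 lower of 6, and all 6 endothelial markers and 4 of 6 mural markers were lower; their part in the fall was not tested. Col4a5 fell in 5 organs, among them brown fat, from 7.3, 9.57 and 12.6 CPM to 3.49, 4.15 and 5.85 CPM without overlap (-1.12, SE 0.21, adjusted p = 1.56e-05), liver (-0.83, SE 0.29) and olfactory bulb (-0.36, SE 0.11). Under every one of the 10 alternatives run in all organs (other scalings, filters, tools, offsets and left-out libraries) it stayed called in 2 of the 5, brown fat and pituitary. Without the libraries with the most RNA of another tissue it was at -0.77 in liver and -0.27 in olfactory bulb and was not called.

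Col6a3 of type VI collagen rose in 4 organs and fell in 1. The gene, whose C-terminal fragment is endotrophin, went in epididymal fat from 99.5, 176 and 295 CPM to 373, 665 and 741 CPM (1.69, SE 0.38, adjusted p = 7.1e-05) and in inguinal fat from 123, 324 and 545 CPM to 807, 905 and 962 CPM (1.42, SE 0.42, adjusted p = 0.00415), both without overlap. It rose in small intestine from 21.8, 29.5 and 34.4 CPM to 46.5, 50.7 and 57.3 CPM (0.82, SE 0.079, adjusted p = 3.65e-14) and in liver from a median of 7.3 to 21 CPM with overlap (1.27, SE 0.17). Col6a1 and Col6a2 each rose in 5 organs, under every alternative too, and the fall of Col6a1 in 1, pituitary, was not called under some of them. In hippocampus Col6a3 fell from 2.99, 8.15 and 15.2 CPM to 2.1, 3.78 and 5.43 CPM (-1.15, SE 0.41, adjusted p = 0.027), where choroid plexus markers ran from 62.2 to 4457 CPM at 0 days and 50.6 to 4011 CPM at 12 weeks. Without the libraries highest in choroid plexus RNA the change was -0.78 and not called.

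The minor type VI chains went their own ways. Col6a4 fell in inguinal fat from 4.79, 11.7 and 15.7 CPM to 0, 0.0821 and 0.483 CPM (-6.21, SE 1.43, adjusted p = 0.000276), the depot in which the lymph node markers given above went to between 5.15 and 21.2 CPM. In small intestine Col6a4 rose from 38.9, 46.3 and 57.6 CPM to 76.1, 83.6 and 93.8 CPM (0.84, SE 0.07, adjusted p = 6.5e-17). Col6a6 fell in brown fat from 2.74, 5.13 and 6.08 CPM to 0.166, 0.776 and 1.43 CPM (-2.53, SE 0.33, adjusted p = 4.32e-09) and in soleus from a median of 2.6 to 0.938 CPM (-1.69, SE 0.42, adjusted p = 0.00729). Over all 69 tested pairs of a type VI gene and an organ, 17 rose and 5 fell, where 14% of all pairs of a gene and an organ were higher and 13.7% lower.

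Col12a1, which decorates fibrils under load, was called higher in 6 of 13 organs, 5 of them under every alternative, and lower in 1. In epididymal fat it went from 5.8, 8.11 and 8.91 CPM to 31.7, 66.3 and 83.7 CPM (3.01, SE 0.36, adjusted p = 1.8e-11) and in inguinal fat from 6.75, 10.8 and 16.3 CPM to 65.2, 74.6 and 87.8 CPM (2.8, SE 0.37, adjusted p = 5.36e-09). The 0-day and 12-week libraries did not overlap in either depot. In brown fat it rose by 0.89 (SE 0.29) and in pituitary by 0.49 (SE 0.16), with overlap; the latter was 0.08 and not called with GC content and length offsets. Col14a1, a related fibril-associated chain, rose in 5 organs and fell in none, and in 3 of the 5 (epididymal fat, inguinal fat and liver) it was called under every alternative. In brown fat the call was lost without the libraries with the most RNA of another tissue (0.67) and with no filter. It was also lost when the least correlated library of 0 days and of 12 weeks was left out. Of 12 fits that left out 1 library, 6 lost the call (0.55 to 0.85 over the 12). In epididymal fat it went from a median of 75.0 to 240.0 CPM (1.66, SE 0.28, adjusted p = 4.04e-07). Col16a1 of the same group rose in inguinal fat from a median of 19.0 to 82.4 CPM (1.96, SE 0.36).

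Among the network-forming and surface collagens, Col8a1, a short chain collagen of vessel walls and Descemet's membrane, rose in epididymal fat from 8.03, 12.3 and 16.6 CPM to 80.8, 95.2 and 116 CPM (2.99, SE 0.32, adjusted p = 3.57e-13). In inguinal fat it rose from a median of 4.32 to 15.8 CPM (1.98, SE 0.37), in pituitary by 0.5 (SE 0.14), and in neocortex it fell by 0.76 (SE 0.25). The fall in neocortex was not called when the least correlated library of 0 days and of 12 weeks was left out (-0.72). Without the libraries with the most RNA of another tissue it was also not called (-0.67). Col18a1 rose in 5 organs, 4 of them under every alternative, and fell in none. In small intestine it went from 25.5, 29.8 and 30.9 CPM to 62.8, 71.2 and 78.5 CPM (1.29, SE 0.077, adjusted p = 4.14e-24). Its relative Col15a1, a multiplexin of muscle and fat basement membranes, rose in inguinal fat from a median of 264 to 896 CPM (1.85, SE 0.44, adjusted p = 0.00042). The transmembrane Col13a1 fell in 3 organs and rose in none, in epididymal fat from 1.49, 2.95 and 4.02 CPM to 0, 0.111 and 0.47 CPM (-4.05, SE 0.56, adjusted p = 1.99e-09) and in liver from a median of 7.73 to 5.78 CPM (-0.55, SE 0.15).

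Outside fat the largest changes of these kinds were in pituitary and soleus. Col7a1, the anchoring fibril collagen of skin, went in pituitary from 8.32, 10.4 and 13.1 CPM to 1.28, 1.9 and 2.42 CPM (-2.47, SE 0.28, adjusted p = 1.31e-11). Col25a1 rose there by 1.0 (SE 0.36, adjusted p = 0.0185), with 1 library of 0 days at 2.01 CPM against a median of 47.6. The Col25a1 change was 0.69 and not called when the least correlated library of 0 days and of 12 weeks was left out. Col26a1 fell in soleus from 3.37, 6.18 and 10.5 CPM to 0.669, 1.39 and 1.77 CPM without overlap (-2.27, SE 0.38, adjusted p = 2.66e-05). Col19a1 fell in olfactory bulb from a median of 5.7 to 3.14 CPM (-0.82, SE 0.16) and Col9a3, a cartilage-type fibril-associated chain, in neocortex from 18.9 to 11.9 CPM (-0.63, SE 0.13). Col20a1 fell in 4 organs, 3 of them under every alternative, and rose in none, for example in brown fat from a median of 4.9 to 2.65 CPM (-1.02, SE 0.28). Col11a2 fell in 6 organs (5 under every alternative) and rose in 1 (0 under every alternative), and Col11a1 fell in 6 of the 9 organs that could test it (5 under every alternative).

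**Figure D2:**
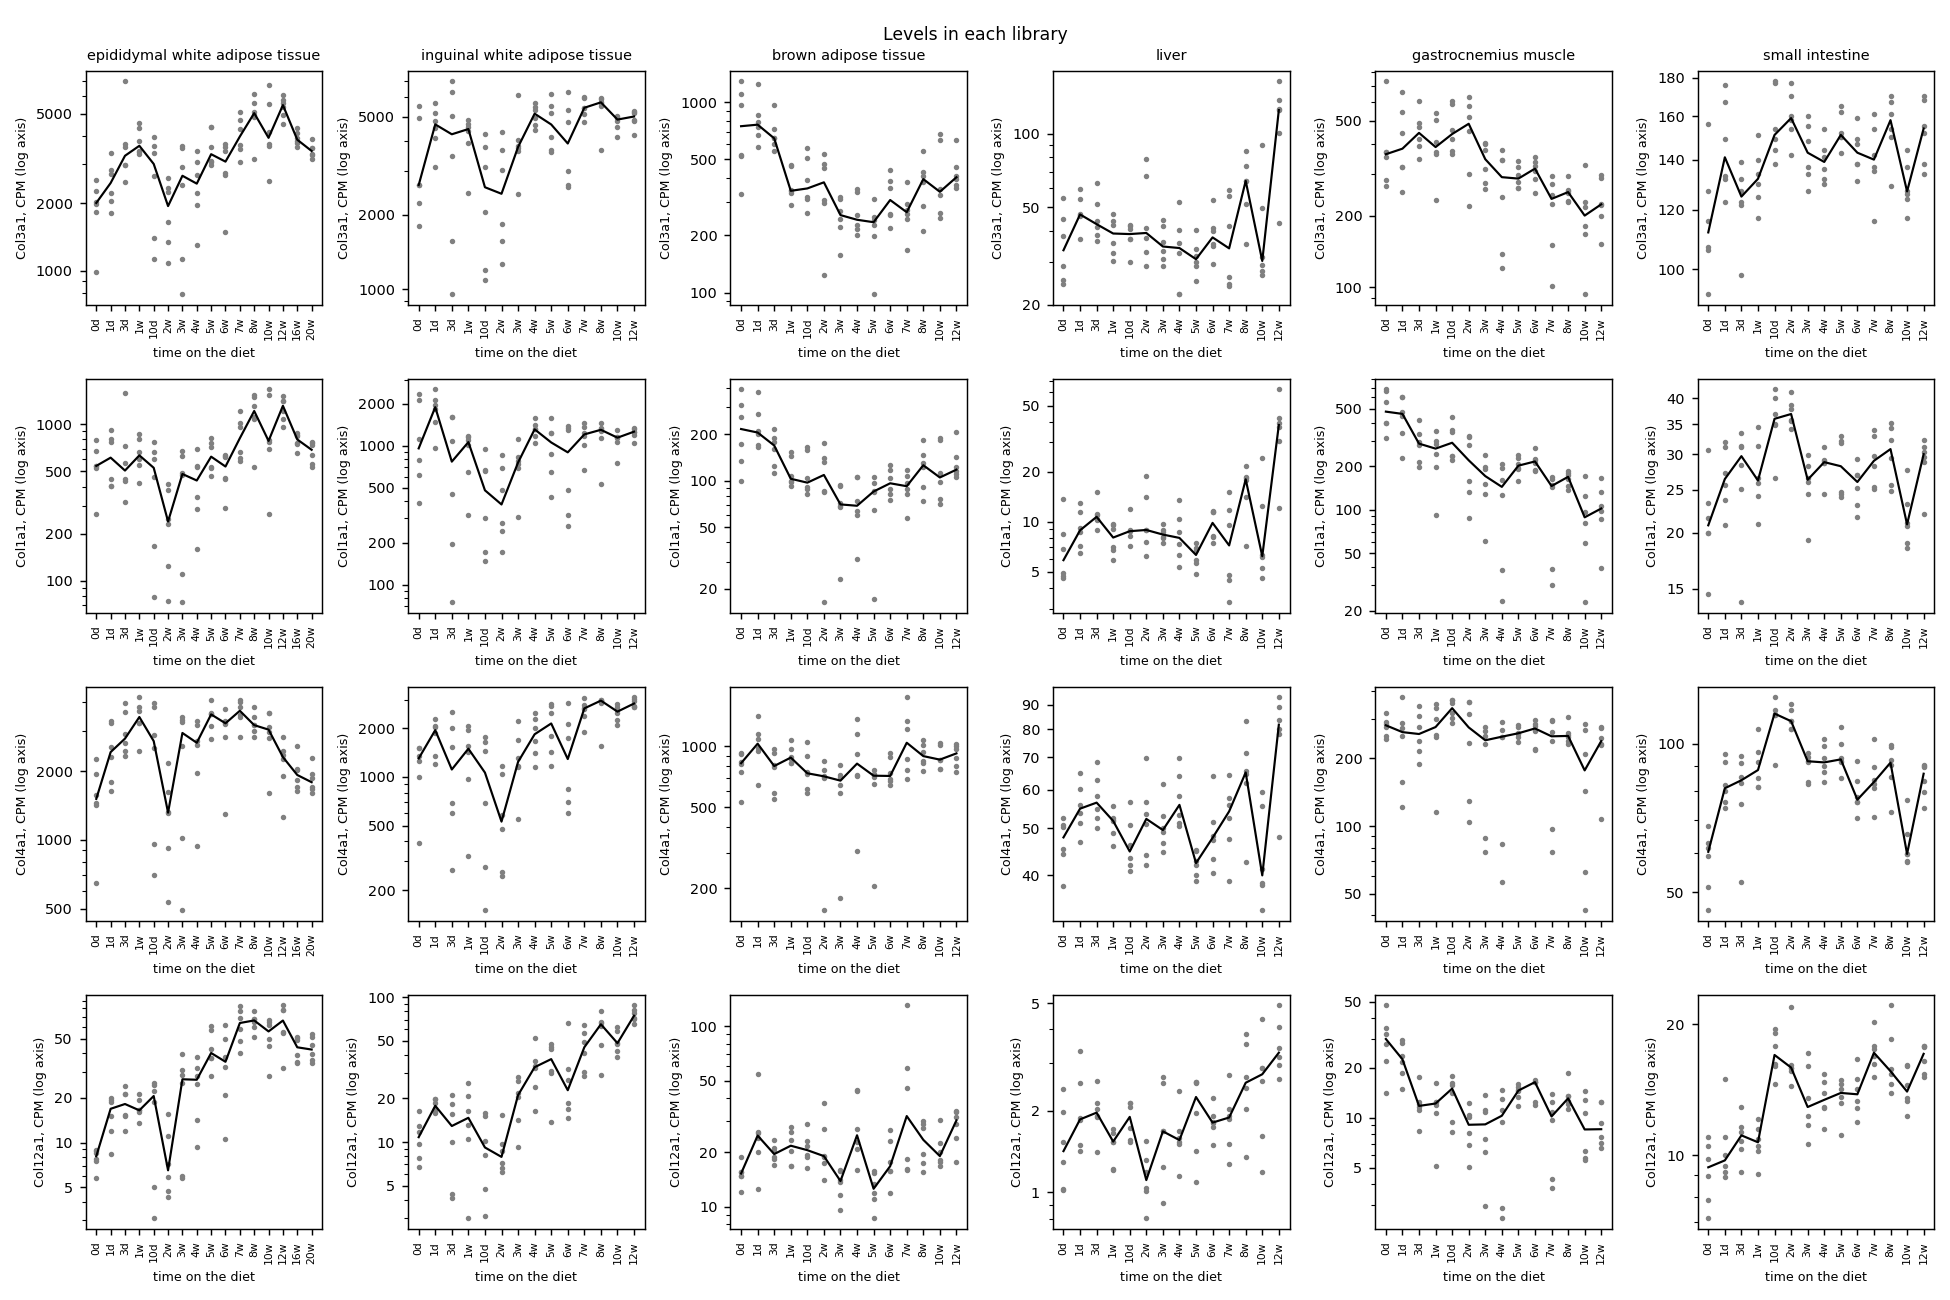
CPM on a log axis (vertical) of Col3a1, Col1a1, Col4a1 and Col12a1 (rows) in 6 organs (columns) at each time on the diet (horizontal), with a point for each of 6 libraries and a line through the medians. In liver Col1a1 is low until 7 weeks and reaches a median of 38.2 CPM at 12 weeks, in gastrocnemius its median falls from 478 to 102 CPM, and in epididymal fat 2 libraries of 2 weeks, at 74.0 and 124 CPM, lie far under the rest.

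The time courses show when these states arose. All comparisons with 0 days share its 6 libraries, so the values at different times are not independent. In epididymal fat 11 collagens were higher and 9 lower at 3 days (21.3% and 16.7% of all genes), and 15 higher and 7 lower at 1 week (20.1% and 16.3%). At 2 weeks 1 was higher and 16 were lower (22.2% and 17.1% of all genes), when Col1a1 was at 379, 247, 417, 231, 74.0 and 124 CPM in replicates 1 to 6. Replicates 5 and 6 were thus the lowest of that time and all 6 lay under the 0-day median of 542 CPM. At 8 weeks 18 were higher and 10 lower (29.0% and 27.3%), the most higher of any time in this organ. Fibroblast markers at 2 weeks, 3 of 8 higher and 1 lower, summed to 12890 to 20169 CPM, and epididymis markers reached 3031 CPM in replicate 4; the part of other cells in the 2-week values was not tested.

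At the latest time fewer collagens were called in epididymal fat than at 8 weeks. At 20 weeks 12 were higher and 6 lower, where 31% of all genes rose and 29.8% fell. Under the alternatives these 18 calls became from 16 (DESeq2) to 26 (voom with quality weights). The alternatives were not run at 8 weeks, so whether the drop holds under them was not tested. Col3a1 had a log2 change of 0.83 (SE 0.25, adjusted p = 0.0034) at 20 weeks and Col12a1 of 2.46 (SE 0.36, adjusted p = 6.85e-09), while Col1a1, at 0.26, was no longer called. The share of TMM-scaled counts from collagens had medians of 0.949% at 0 days, 1.76% at 1 week, 0.925% at 2 weeks, 2.22% at 8 weeks, 2.0% at 12 weeks and 1.37% at 20 weeks. A slope fitted to the libraries from 1 to 12 weeks, which leaves the 0-day mice out, rose for 15 of 33 collagens and fell for 5, where 29.5% of all genes rose and 35.2% fell. The rising slopes included 7 of 8 fibrillar genes, and 4 of 6 type IV genes had falling slopes.

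**Figure D3:**
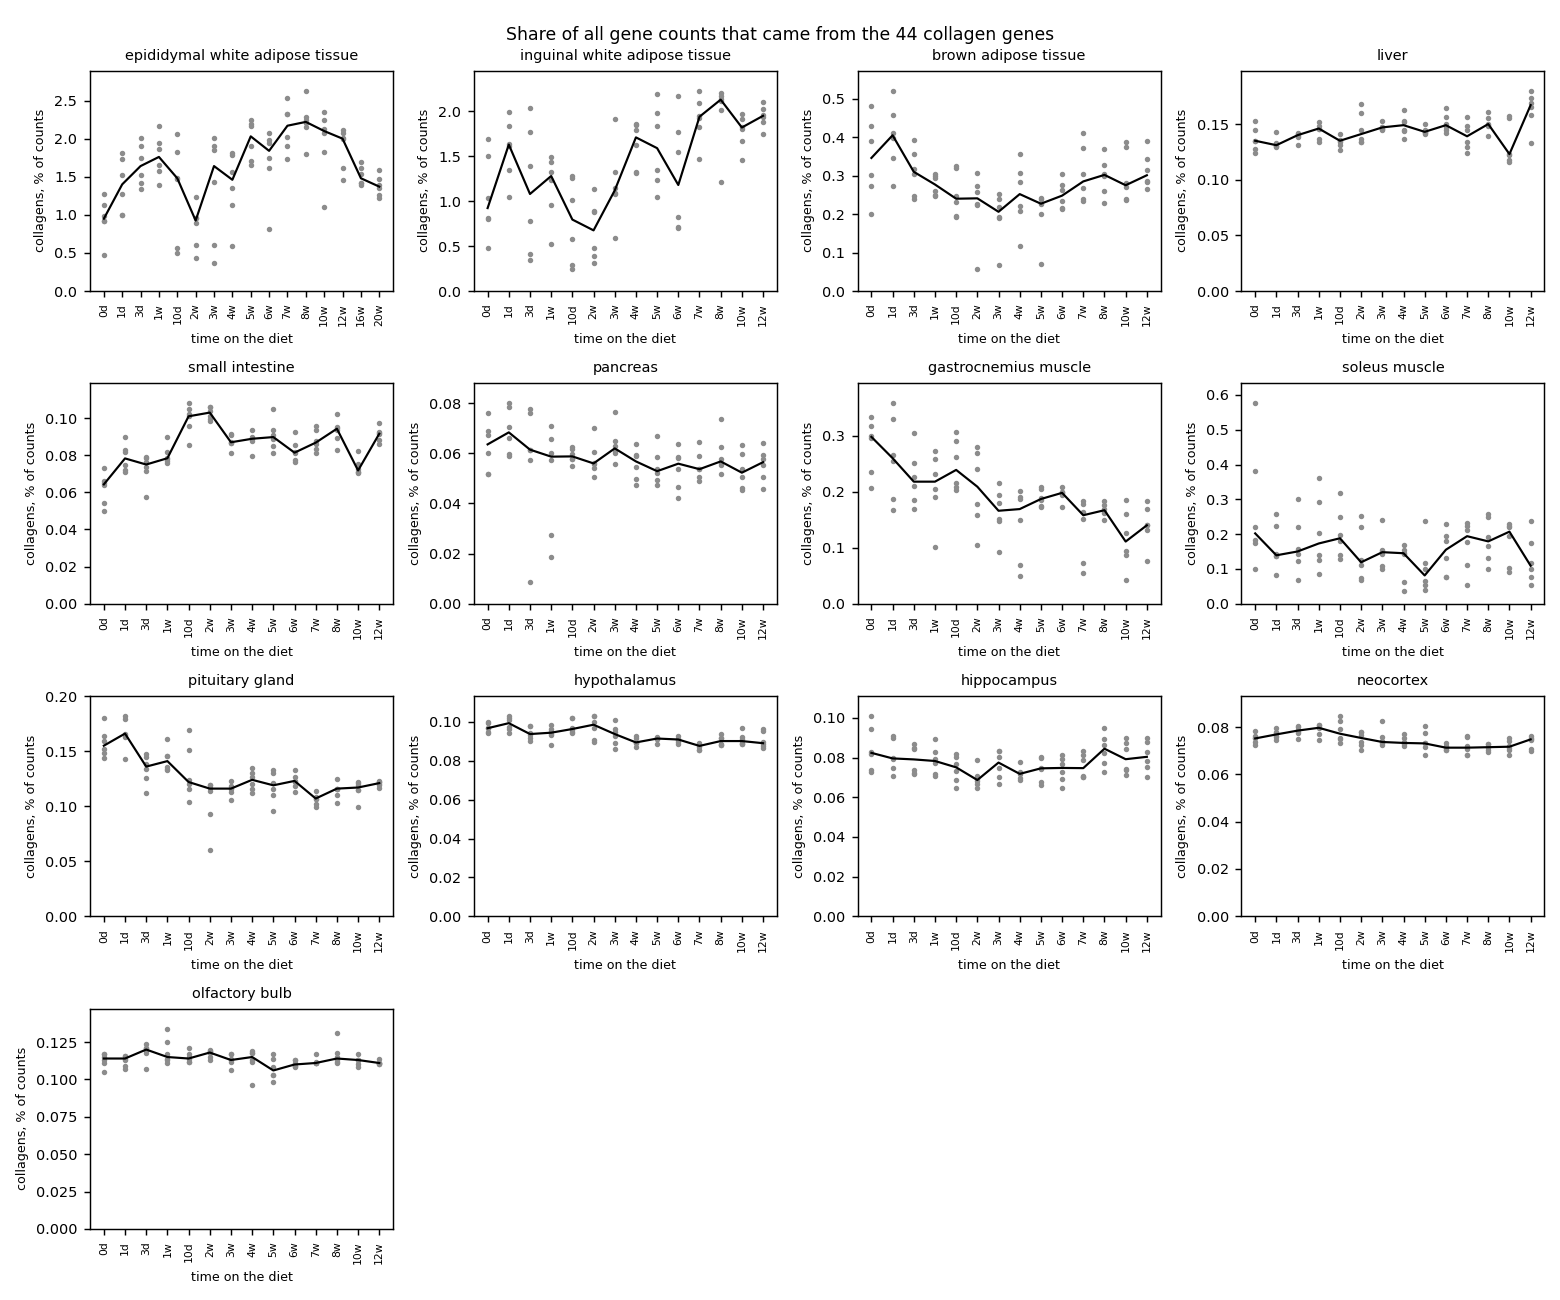
Summed CPM of the 44 collagens as a percent of the TMM-scaled library size (vertical) by time on the diet (horizontal) in 13 organs. Each of 6 libraries has a point, and a line runs through the medians. The medians of epididymal fat run from 0.949% at 0 days through 0.925% at 2 weeks to 2.22% at 8 weeks, and those of gastrocnemius from 0.298 to 0.14%; the vertical scale differs between organs.

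In inguinal fat the share of TMM-scaled counts from collagens had a median of 0.923% (0.474 to 1.69%) at 0 days and 1.63% (1.05 to 1.99%) at 1 day, with overlap. At 10 days 0 were higher and 8 lower (5.83% of all genes lower), and the median share was 0.675% at 2 weeks. At 7 weeks 17 were higher and 6 lower (18.8% and 20.1% of all genes), and at 12 weeks the share had reached 1.95% (1.75 to 2.1%). The slope from 1 to 12 weeks rose for 22 of 36 and fell for 3, where 25.7% of all genes rose and 38.0% fell. Col1a1, which was level between 0 days and 12 weeks, was lower at 10 days (-1.36) and 2 weeks (-1.45) and had a rising slope of 0.0875 log2 units per week.

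Brown fat went down first and came part of the way back. At 1 week 10 of 30 were lower (7.27% of all genes) and at 3 weeks 18 (10.8%), with 0 higher at either time. Col1a1 had its lowest log2 change, -1.7, at 3 weeks, and Col3a1, -1.84, at 5 weeks, against -0.77 and -0.86 at 12 weeks. At 12 weeks Col1a1 was not called in the main fit. It was called with voom and quality weights, with the 2 groups alone and with GC content and length offsets. The slope from 1 to 12 weeks rose for 15 of 29 and fell for 4 (27% and 28% of all genes). The 0-day libraries were uneven in this organ, with Col3a1 from 329 to 1286 CPM.

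In liver 3 of 27 collagens were higher and 1 lower at 7 weeks (11.3% and 11.4% of all genes), shares near or under the background. At 8 weeks 10 of 27 were higher and 1 lower (14.9% and 15.5% of all genes), at 10 weeks 3 and 3 (12.6% and 12.5%), and at 12 weeks 15 and 2. Col1a1 was at 18.7, 7.16, 17.8, 18.3, 21.7 and 14 CPM in replicates 1 to 6 at 8 weeks and at 24.2, 12.5, 4.58, 6.11, 6.29 and 5.29 CPM at 10 weeks. At 10 weeks only replicates 1 and 2 were above the highest but one of the 0-day libraries, so the rise was not steady over the last 3 time points. The comparison of 12 with 4 weeks does not use 0 days as its reference, although the 0-day libraries enter the filter, the scaling and the estimate of spread. It had 15 higher and 3 lower (17.5% and 18.2% of all genes), with Col1a1 at 2.11 and Col3a1 at 1.75. Col1a1, Col1a2 and Col3a1 together made up 3.97% of all collagen counts at 0 days and 12.6% at 12 weeks.

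Small intestine changed at once. After 1 day 13 of 36 collagens were higher (12.1% of all genes), and Col18a1 had gone from a median of 29.8 to 53.4 CPM with no overlap (0.86). At 2 weeks 25 were higher (19.9%), at 10 weeks 10 (18.0%), and 0 were lower at any of the 13 times. Acinar markers at 2 weeks summed to 2857 to 16152 CPM, which overlapped the 0-day range, while at 12 weeks they did not.

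In pituitary the fall was present by 3 days. At 3 days 13 of 43 were lower and 3 higher (20.6% and 19.4% of all genes), and at 7 weeks 24 were lower (22.3%). Col27a1 was at 100 to 135 CPM at 1 day (-0.27, SE 0.16, adjusted p = 0.651) and at 36.3 to 54.9 CPM at 3 days (-1.67, SE 0.17, adjusted p = 6.73e-14), and Col24a1 (-1.35) and Col7a1 (-2.01) were also lower at 3 days. Between 4 and 12 weeks 1 was higher and 1 lower (1.44% and 1.68% of all genes).

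In gastrocnemius 12 were lower at 2 weeks (8.27% of all genes) and 27 of 39 at 10 weeks (14.3%), and no collagen was higher at any of the 13 times. The slope from 1 to 12 weeks fell for 15 of 37 (3.16% of all genes). In soleus 5 were lower at 5 weeks (0.817% of all genes), the same number as at 12 weeks. In neocortex the slope fell for 18 of 44 (12.4%), and in hippocampus it rose for 13 and fell for 6 of 41 (18.8% and 17.2%). Hypothalamus had 7 lower at 7 weeks (4.18%), and olfactory bulb 7 higher and 6 lower at 4 weeks (22.1% and 17.8%). In pancreas 0 of 30 were called at any single time (0 to 4 genes at an unadjusted p under 0.05). The test over all times called 1 of 30 (20.6% of all genes), and the slope rose for 1 of 26, Col7a1, and fell for 1, Col6a5 (5.46% and 5.09% of all genes), both named because the counts are so small.

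**Figure D4:**
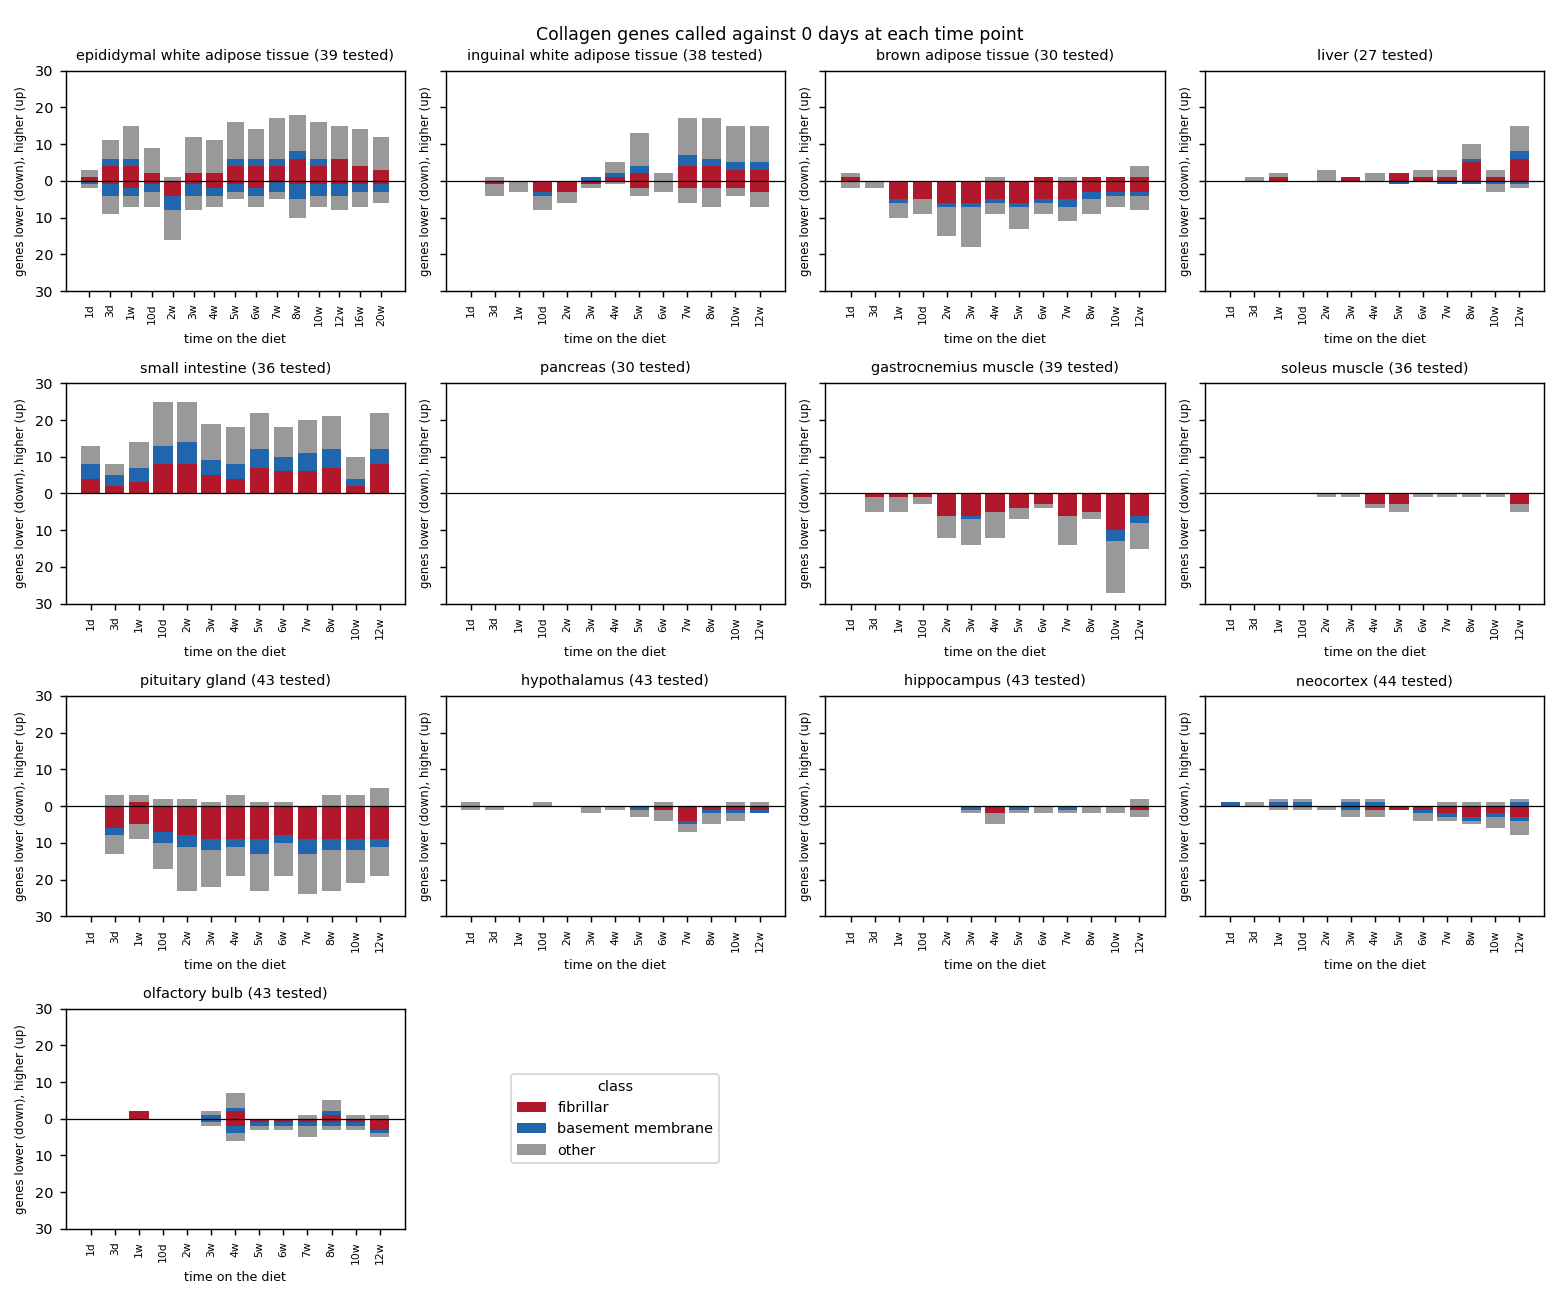
Number of collagen genes called higher (bars upward) or lower (bars downward) than at 0 days at each time on the diet (horizontal), split into fibrillar, basement membrane and other genes, in 13 organs with 6 libraries per time. Small intestine has 8 to 25 higher and 0 lower, gastrocnemius up to 27 lower and 0 higher, liver 15 higher at 12 weeks, and pancreas no bars.

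The 12-week change was then compared between organs directly, as an interaction of organ and time. The fit had no term for the mouse, so libraries of different organs were treated as independent even if they came from the same mice. Against brown fat, 15 of 40 collagens changed more upward in epididymal fat and 6 more downward (19.9% and 20.5% of all genes). The difference was 2.3 for Col3a1 (SE 0.38, adjusted p = 1.34e-07), which rose in epididymal fat and fell in brown fat, 2.45 for Col8a1 (SE 0.39, adjusted p = 5.13e-08) and 1.8 for Col5a2. Col13a1 (-4.11, SE 0.56), Col4a4 (-2.66) and Col4a3 (-2.48) differed in the other direction. Against inguinal fat, 3 of 40 differed upward and 8 downward (21.4% and 18.9%). Col4a4 and Col4a3 fell in epididymal fat, while in inguinal fat their log2 changes were 0.56 and 0.39 and were not called. The differences were -3.48 (SE 0.47, adjusted p = 5.27e-10) and -3.31 (SE 0.5, adjusted p = 2.05e-08). The upward differences were those of Col11a2 (2.9), Col6a4 (6.76) and Col27a1 (1.56), all of which fell in inguinal fat.

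The white depots could not be told apart in the common chains. The difference between epididymal and inguinal fat was 1.19 for Col1a1 (SE 0.59, adjusted p = 0.0989), 0.89 for Col3a1 (SE 0.39, adjusted p = 0.057), -0.81 for Col4a1 (SE 0.5, adjusted p = 0.199) and 0.26 for Col6a3 (SE 0.56, adjusted p = 0.746). So the call of Col1a1 in epididymal fat and its absence in inguinal fat is not shown to be a difference between them. Against liver, 4 of 39 differed upward and 7 downward (20.8% and 26.3%), with Col1a1 rising more in liver (-1.27, SE 0.5, adjusted p = 0.0288) and Col8a1 (2.34), Col12a1 (1.73) and Col14a1 (0.91) more in epididymal fat. Between gastrocnemius and soleus edgeR called 0 of 40 (0.348% of all genes in either direction), with 2 at an unadjusted p under 0.05. The difference for Col1a1 there was -0.19 (SE 0.65).

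Chains that share a trimer or a fibril did not always move in step. Ratios of log2 CPM plus 0.5 were compared between 0 days and 12 weeks by an exact two-sided permutation test over all splits of 6 and 6 libraries, whose smallest p is 0.00216, and 28 of 87 pairs and organs tested had an adjusted p under 0.05. In liver Col1a1 gained on Col1a2, from a mean log2 ratio of -1.17 (SD 0.33) to -0.27 (SD 0.24), an exact permutation p of 0.00216 (adjusted 0.0126). In pituitary the same ratio rose by 0.66 and in epididymal fat by 0.33, and in gastrocnemius it fell by 0.33. Col3a1 gained on Col1a1 in gastrocnemius, from -0.38 (SD 0.67) to 1.23 (SD 0.37; exact permutation p = 0.00433, adjusted 0.0209), and in soleus by 0.95, and lost to it in liver (-0.62), neocortex (-0.62), pituitary (-0.54) and olfactory bulb (-0.53).

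Even the pair with the shared start region shifted. Col4a1 lost to Col4a2 in inguinal fat, from a mean log2 ratio of 0.89 (SD 0.06) to 0.49 (SD 0.03), and by 0.15 in brown fat and 0.14 in epididymal fat, and gained on it in liver (0.3) and pituitary (0.13). The ratio of Col6a3 to Col6a1 rose in epididymal fat (0.65), inguinal fat (0.53) and liver (0.46) and fell in brown fat (-0.3) and hippocampus (-1.35). In hippocampus the ratio was not tested without the libraries highest in choroid plexus RNA, and in the fit without them the fall of Col6a3 was not called. Of the fibril pair of type V, Col5a1 lost to Col5a2 in pituitary (-0.65), epididymal fat (-0.61) and gastrocnemius (-0.24) and gained on it in neocortex (0.44).

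**Figure D5:**
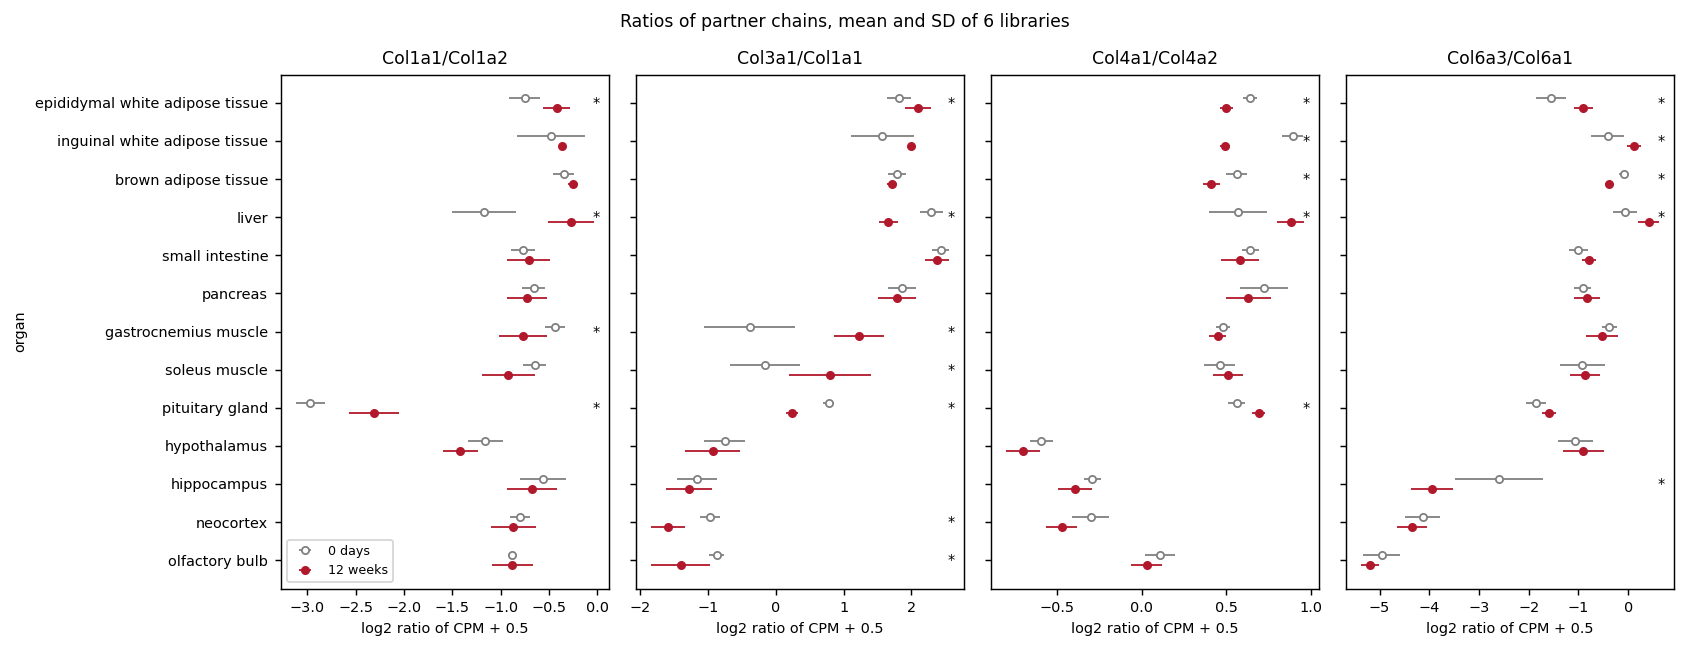
Mean log2 ratio of CPM plus 0.5 (horizontal, with SD bars over 6 libraries) of 4 pairs of collagen chains in 13 organs (vertical), at 0 days (open grey) and 12 weeks (red); asterisks mark adjusted p under 0.05 by the exact permutation test. In liver the Col1a1 to Col1a2 ratio moves from -1.17 to -0.27, and in gastrocnemius the Col3a1 to Col1a1 ratio from -0.38 to 1.23.

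The genes that fold, cut, link, break down and bind collagen were followed as a list of 48. In epididymal fat 33 of 48 rose and 3 fell at 12 weeks, with a median log2 change of 0.76, where 31% of all genes rose and 29.3% fell. In inguinal fat 25 of 47 rose and 1 fell, with a median of 0.61, where 21.5% of all genes rose and 23.1% fell. Lair1, an inhibitory collagen receptor of leukocytes, had a log2 change of 4.16 (SE 0.3, adjusted p = 3.58e-21) and Ctsk, a collagen-cutting protease, of 3.64 (SE 0.26, adjusted p = 5.33e-21) in epididymal fat, beside the macrophage markers given above. In inguinal fat Lox, which cross-links collagen, rose by 2.32 (SE 0.26, adjusted p = 2.04e-11) and Ctsk by 1.46 (SE 0.18).

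The counts were smaller in the other organs. Small intestine had 16 of 44 higher (36.4%, against 19.8% of all genes) and 4 lower (9.09% against 19.1%), brown fat 14 of 44 higher (31.8% against 14.4%) and 2 lower (4.55% against 13.2%), and liver 13 of 39 higher (33.3% against 20.6%) and 4 lower (10.3% against 21.4%). In pituitary 10 of 46 were higher (21.7% against 23.2%) and 15 lower (32.6% against 22.4%), so the higher share was near the background. In gastrocnemius 0 of 44 were higher, against 2.4%, and 5 lower (11.4% against 3.54%). In brown fat Pcolce, which helps remove the C-propeptide, rose by 1.53 (SE 0.15, adjusted p = 1.02e-13), although Col1a2 and Col3a1 fell there. In liver Serpinh1, the collagen chaperone HSP47, rose by 0.98 (SE 0.14, adjusted p = 6.61e-09) and P4hb, a subunit of prolyl 4-hydroxylase, by 0.45 (SE 0.06). In gastrocnemius Lox fell by 0.96 (SE 0.18, adjusted p = 0.00012) and Adamts2, which removes the N-propeptide, by 0.8 (SE 0.17). In hippocampus 5 of 44 were higher (11.4% against 13.2%) and 9 lower (20.5% against 12.4%), and in neocortex 6 were higher and 6 lower (13.6% each, against 13.3% and 11.8%). The other 4 organs had 1 to 4 higher and 1 or 2 lower. The shares were 8.89% higher and 2.22% lower in olfactory bulb, 2.22% and 4.44% in hypothalamus, 2.56% and 5.13% in pancreas, and 2.17% each in soleus. Beside the shares of all genes given above, they were under them in olfactory bulb and near them in the rest.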

How the data were processed

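RNA was sequenced from poly(A)-selected, strand-specific libraries, per the labels' protocols. The deposited values were raw counts per gene. Per the submitters' processing notes featureCounts 1.6.3, HISAT2 2.1.0, Trimmomatic 0.38, FastQC 0.11.7 and SAMtools 1.9 were used with build GRCm38 (mm10). Which annotation was counted, and whether by strand, is not given in the sources used here; overlapping and antisense genes may share reads. Every column matched the labels of 1 sample, and all 44 collagens matched the reference annotation by symbol, as did 98.4% of all genes.

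A fit per organ was made with edgeR 4.0.16 (R 4.3.3) by the quasi-likelihood test, with filterByExpr and TMM scaling, 1 coefficient per time point over all libraries of the organ, and Benjamini-Hochberg adjustment over all genes tested at a threshold of 0.05. Standard errors are the log2 fold change divided by the square root of F. Organ differences were interaction terms over both organs' libraries. Chain ratios used Python 3.11.15, scipy 1.17.1 and a pseudocount of 0.5 CPM. The fits were tested on simulated counts. Alternatives were RLE size factors, no filter, DESeq2 1.42.0, voom with quality weights (limma 3.58.1), the 2 groups alone, a replicate block, GC content and length offsets, and fits without single libraries.

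Named genes were, per organ, the 4 highest and 4 lowest log2 changes among collagens called at 12 weeks (epididymal fat also at 20 weeks) whose mean reached 1 CPM at either time. Col1a1, Col1a2, Col3a1, Col4a1, Col4a2 and Col6a3 were named in all organs, with the 3 smallest p-values per direction of an organ difference and at most 2 genes per organ of the 48 handling genes. Genes were also named by the number of organs that called them. The members and lists were chosen with earlier results of these data known.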

Additional observations from a re-analysis of the deposited data

Results flagged for a closer look

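Of 280 groups of 6 libraries of a named collagen that were checked for a sample far from the others, 26 (9.29%) had one, where chance gives about 1 in 20. In brown fat at 12 weeks replicate 4 was the highest for Col14a1 (27 CPM), Col1a1 (206 CPM), Col1a2 (239 CPM) and Col3a1 (634 CPM). In epididymal fat the distant libraries were replicate 5 for Col11a1 (0.242 CPM) and replicate 4 for Col13a1 (0.133 CPM) at 20 weeks, and replicate 3 for Col1a2 (520.0 CPM) and replicate 1 for Col4a4 (14.5 CPM) at 0 days. In inguinal fat it was replicate 3 at 12 weeks for Col6a4 (0.483 CPM), and in liver replicate 6 at 12 weeks for Col4a1 (48.1 CPM).

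In gastrocnemius replicate 2 stood apart for Col3a1 at 0 days (733 CPM) and for Col4a1 (108 CPM) and Col4a2 (81.4 CPM) at 12 weeks, and in soleus replicate 4 at 0 days for Col1a1 (1150.0 CPM). In small intestine replicate 6 at 12 weeks was the lowest for Col1a1 (22.0 CPM), and in pancreas replicate 4 at 12 weeks stood apart for Col1a1 (42.6 CPM). In pituitary replicate 5 at 0 days was the highest for Col4a1 (276 CPM) and Col4a2 (177 CPM), and replicate 3 at 12 weeks stood apart for Col6a3 (10.6 CPM).

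In olfactory bulb the distant libraries were replicate 4 for Col11a1 (27.8 CPM) and replicate 5 for Col3a1 (5.59 CPM) at 12 weeks, and replicate 1 for Col4a2 (110.0 CPM) and Col4a5 (9.49 CPM) at 0 days. In hypothalamus replicate 5 at 12 weeks stood apart for Col1a2 (43.7 CPM) and Col3a1 (11.2 CPM), and in hippocampus replicate 6 at 0 days for Col6a1 (34.7 CPM).

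The 12-week change differed between organs by the interaction test for these collagens. Epididymal minus brown fat was 2.45 for Col8a1, 2.3 for Col3a1, 1.8 for Col5a2, -4.11 for Col13a1, -2.66 for Col4a4 and -2.48 for Col4a3. Epididymal minus inguinal fat was 2.9 for Col11a2, 6.76 for Col6a4, 1.56 for Col27a1, -3.48 for Col4a4, -3.31 for Col4a3 and -2.93 for Col13a1. Epididymal fat minus liver was 2.34 for Col8a1, 1.73 for Col12a1, 0.91 for Col14a1, -3.54 for Col13a1, -3.63 for Col4a4 and -2.79 for Col4a3.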

How the results depend on the processing

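The total number of called collagens at 12 weeks stayed within 1.5 times under the alternatives run except in soleus, hippocampus and pancreas. In soleus the 5 became 11 with voom quality weights and 11 with GC content and length offsets. It became 10 with those offsets and a replicate block, and 1 with the 2 groups alone. Without the least correlated library of 0 days and of 12 weeks it became 2. Another setting, chosen after seeing the data, left out the library of 0 days and of 12 weeks with most RNA of another tissue. In soleus, inguinal fat and pancreas these 2 settings left out the same libraries and count as 1 check. In hippocampus the setting on other tissue gave 3 in place of 5, and in pancreas voom gave 1 in place of 0. The cause was not tested. With the GC content and length offsets the higher and lower calls became 1 and 5 in hippocampus, 1 and 11 in neocortex, 0 and 6 in olfactory bulb and 17 and 0 in small intestine. In pituitary those offsets kept 19 of the 24 calls and lost Col12a1, Col14a1 and Col25a1 of the 5 higher ones. In brown fat the 4 higher calls became 6 with DESeq2 and 8 with voom quality weights. Leaving out each library of 0 days or 12 weeks in turn gave 22 to 25 calls in epididymal fat, 22 to 23 in inguinal fat, 10 to 13 in brown fat and 17 to 19 in liver, and was not run in the other organs.

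In the main fits the replicate numbers were not used as pairs. Deviations of same-numbered libraries of 0 days and 12 weeks were correlated within each organ, and in no organ were all 6 correlations over 0.1. They were -0.071 to 0.434 in hippocampus and -0.04 to 0.429 in pancreas, each with 4 of 6 over 0.1. In soleus they were -0.489 to 0.734 and in epididymal fat -0.186 to 0.085. This compares times within an organ, so it cannot show whether a number links the organs of a mouse. With the replicate block epididymal fat had 23 calls (16 higher, 7 lower), inguinal fat 23, liver 17, brown fat 12, gastrocnemius 15, small intestine 22, pituitary 24 and soleus 6, and no call of the 146 named values changed. No called value reversed. There were 23 values of the other sign under an alternative, in 8 results, none called in either fit. Depth limits genes near 1 CPM, such as Col11a1 in fat, whose fitted change depends on the prior count.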
